A study of Cavia porcellus with 10 samples.

Results

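The genes described here are 41 leukocyte marker genes, measured by RNA-seq in whole sclera, the fibrous white coat of the eye, built mostly of collagen, of guinea pigs (Cavia porcellus). They were chosen by name. Each is a line of the deposited count table whose symbol equals a list member, ignoring case, and for a symbol on several lines the line with the highest mean was taken. All 41 were found among 17642 lines with a symbol, and 36 of them were among the 14683 genes with enough reads to test. They were read in 3 classes: 18 myeloid genes (macrophages, monocytes and their oxidase), 10 pan-leukocyte genes and 11 lymphocyte genes. CPA3 of mast cells and MPO of neutrophils stood beside these classes.

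The myopia group comprised 5 eyes of male guinea pigs, aged 2 to 3 weeks when the model was set up, whose lenses, worn bilaterally, induce myopia (nearsightedness). The control group comprised 5 eyes of untreated males of the same age. Neither the strain nor the duration of lens wear is given in the sources used here. The labels name no animal for an eye, and p-values therefore rest on the spread between libraries. If some eyes share an animal, the libraries are not independent and p-values may be too small.

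Leukocytes are the blood-derived cells of the immune system. Macrophages live in connective tissue, where they take up debris and microbes through scavenger receptors and kill microbes with an oxidase that makes superoxide. Lymphocytes recognise antigen through the T cell receptor with its CD3 chains, or through the B cell receptor with its CD79 chains. Pan-leukocyte genes serve the signalling, actin skeleton and movement shared by nearly all of these cells. The roles given here are those known in human and mouse. Whole tissue was sequenced, so fewer cells of a type and less RNA per cell cannot be told apart.

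Library totals lay between 32309258 and 35430797 reads. Values are CPM (reads of a gene relative to the size of its library) scaled with TMM factors, and differences are log2 fold changes of myopia over control (log2 changes below) from edgeR's quasi-likelihood test (Benjamini-Hochberg adjusted over every gene tested, threshold 0.05). Most of the transcriptome differed between the groups: 71.9% of the genes tested passed, 36.9% as higher and 35.1% as lower in myopia, and 57.8% did not overlap between the groups. The median log2 change of all genes tested was 0.03, and with libraries scaled by total count alone it was 0.47, so higher and lower are relative to the TMM scale. Matrix genes that mark scleral tissue stood high: COL1A1, a chain of type I collagen, stood between 31347 and 39724 CPM in myopia, against 68622 to 94191 CPM in control. Of 10 fibroblast genes tested, 3 were higher (PDGFRA, DCN and MFAP5) and 3 lower (COL1A1, COL3A1 and DPT), with a median of -0.20. Total-count scaling gave 5 higher and 2 lower, with a median of 0.25, where 52.0% of all genes tested were higher and 18.7% lower. The count of higher genes was 1 with RLE factors and with the replicate block, and lay between 1 and 4 when single libraries were left out (myopia 1, 2 and 3 and control 3 changed it most). Red cell transcripts also differed: HBB, a globin chain, stood at 56.7, 139.9, 231, 138.7 and 89.7 CPM in myopia libraries 1 to 5, against 2237, 2694, 4460, 5589 and 1330 CPM in control libraries 1 to 5. The part of blood content in the values below was not tested.

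In the myopic sclera 23 of the 36 tested members were lower, 1 was higher and 12 did not pass. The share called lower was 63.9% of the members tested, beside 35.1% of all genes tested, and the share called higher was 2.78%, beside 36.9%. Their median log2 change was -1.01, and 29 of the 36 had a negative one. In 18 members every myopia library lay below every control library, which held for 28.0% of all genes tested, and in 1 member, PTPRC, every myopia library lay above (29.8% of all genes tested). With scaling by total count 19 members were lower and 6 higher, where 18.7% of all genes tested were lower and 52.0% higher, with a median of -0.56 beside 0.47 for all genes. Of the members tested, 31 stood above the filter's minimum level in all 10 libraries. For MARCO, CD3E and CD79B every control library but not every myopia library reached it, for IL7R every myopia library but not every control library did, and CD2 passed through 4 control libraries and 1 myopia library. Those members could enter the test more easily if they differed.

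**Figure D1:**
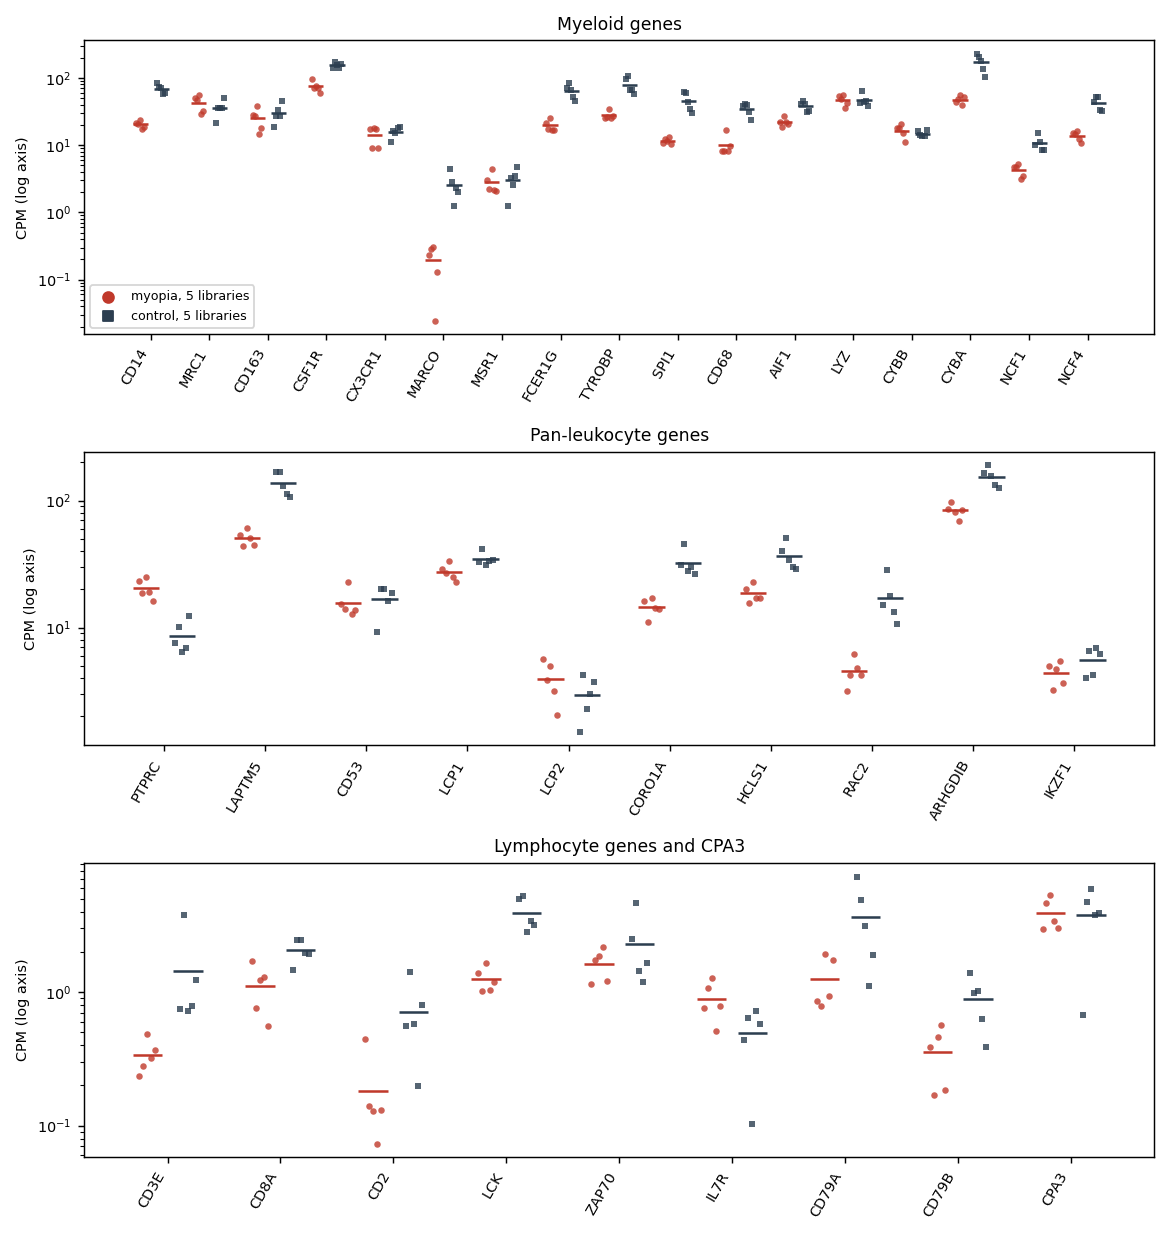
Level of each tested member in each library, in CPM on a log axis, with myopia libraries as red circles to the left and control libraries as dark squares to the right of each gene; lines are means of 5 libraries. CD14, SPI1 and LAPTM5 are examples in which all myopia libraries lie below all control libraries, and PTPRC is the member in which they all lie above.

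Of the 17 myeloid genes tested, 11 were lower in myopia (64.7%, beside 35.1% of all genes tested). Another 6 did not pass, and 0 were higher (beside 36.9% of all genes tested). The median log2 change of the 17 was -1.32. No myeloid gene was higher at an unadjusted p under 0.05 either (0 in the edgeR test), and DESeq2 called 0. Scaling by total count gave 3, where 52.0% of all genes tested were higher. All 11 lower genes had myopia libraries entirely below the control libraries, as did 28.0% of all genes tested. These 11 calls were kept under every alternative run, except that MARCO had too few reads to be tested with a minimum count of 50.

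Among the receptors of macrophages, CD14, the co-receptor that presents bacterial lipopolysaccharide to TLR4, stood at 21.1, 20.8, 23.7, 17.4 and 18.6 CPM in myopia libraries 1 to 5, against 83.5, 73.8, 70.6, 58.0 and 59.1 CPM in control libraries 1 to 5. The groups did not overlap, and control libraries 4 and 5 were the lowest of the control group. The log2 change of CD14 was -1.76 ± 0.12 (SE, n = 5 per group; adjusted p = 1.96e-07 in edgeR). CSF1R, the receptor for the growth factor on which macrophages depend, stood at 96.6, 70.9, 76.2, 71.6 and 60.1 CPM in myopia, against 138.8, 174, 156, 140.4 and 160.1 CPM in control. Its groups did not overlap, and its log2 change was -1.04 ± 0.12 (SE; adjusted p = 5.37e-06). MARCO, a scavenger receptor of macrophages, was a low gene with 9, 10, 12, 1 and 5 reads in myopia, against 112, 80, 37, 71 and 62 reads in control. It fell by 3.69 ± 0.50 in log2 units (SE; adjusted p = 2.16e-05), the most negative value among the members tested.

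The other receptors did not pass. MRC1, the mannose receptor, stood at 49.7, 46.7, 56.7, 29.0 and 32.4 CPM in myopia, against 21.2, 35.4, 35.2, 35.8 and 50.9 CPM in control. Its groups overlapped, and its log2 change was 0.27 ± 0.23 (SE; adjusted p = 0.307). With scaling by total count it was 0.68 and passed (adjusted p = 0.0281). CD163, the receptor for haemoglobin bound to haptoglobin, averaged 25.2 ± 9.17 CPM in myopia and 30.5 ± 10.1 CPM in control (SD, n = 5 each), a log2 change of -0.28 ± 0.27 (SE; adjusted p = 0.369). CX3CR1, the fractalkine receptor of resident macrophages and some monocytes, averaged 14.2 ± 4.68 CPM in myopia and 15.8 ± 3.04 CPM in control (SD). MSR1, another scavenger receptor, averaged 2.79 ± 1.01 CPM in myopia and 3.03 ± 1.25 CPM in control (SD). For CD163, CX3CR1 and MSR1 the sign of the log2 change was negative on the TMM scale and positive with scaling by total count, without passing on either. ADGRE1, the F4/80 antigen of mouse macrophages, was too low to test, with 1 to 17 reads per library in myopia and 0 to 5 in control.

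SPI1 encodes PU.1, the transcription factor that directs myeloid development. It stood at 10.8, 12.3, 11.4, 13.2 and 10.3 CPM in myopia, against 61.4, 59.5, 43.5, 33.9 and 29.9 CPM in control. All control libraries lay above the myopia libraries, but they spread widely, with control 4 and 5 lowest, while the myopia libraries lay close together. The log2 change of SPI1 was -1.98 ± 0.19 (SE; adjusted p = 1.45e-06). FCER1G and TYROBP (DAP12) are the signalling adaptors that pass on signals of Fc receptors and of many myeloid receptors. FCER1G averaged 19.7 ± 3.76 CPM in myopia and 64.1 ± 15.8 CPM in control (SD, n = 5 each), a log2 change of -1.70 ± 0.17. TYROBP averaged 27.8 ± 4.10 CPM in myopia and 78.9 ± 22.5 CPM in control (SD), a log2 change of -1.50 ± 0.17. Both fell (adjusted p = 2.09e-06 for FCER1G and 5.99e-06 for TYROBP in edgeR), without overlap between the groups.

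CD68, a lysosomal membrane protein of macrophages, stood at 8.24, 8.23, 16.7, 8.18 and 9.74 CPM in myopia, against 38.6, 40.4, 39.7, 30.9 and 23.5 CPM in control. Myopia 3 stood above the other myopia libraries but below every control library, and the log2 change was -1.76 ± 0.22 (SE; adjusted p = 1.17e-05). AIF1 (IBA1), an actin-binding protein of macrophages, averaged 22.1 ± 3.07 CPM in myopia and 38.1 ± 6.13 CPM in control (SD), and fell by 0.79 ± 0.13 in log2 units (SE; adjusted p = 9.56e-05). LYZ, the enzyme that cleaves bacterial cell walls, stood at 53.3, 48.3, 56.3, 35.8 and 42.2 CPM in myopia, against 42.0, 64.9, 44.1, 44.7 and 38.8 CPM in control. The groups of LYZ overlapped throughout, with a log2 change of 0.01 ± 0.15 (SE; adjusted p = 0.965). Scaling by total count gave 0.46 (adjusted p = 0.0104). The symbol LYZ stood on 2 further lines that held at most 8 reads in a library, and lysozyme genes are a family of close copies, so its count is uncertain.

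The phagocyte oxidase is built of a membrane pair, CYBB (gp91phox, the catalytic chain) and CYBA (p22phox, its stabilising partner), with cytosolic subunits that include NCF1 (p47phox) and NCF4 (p40phox). CYBA stood at 44.0, 48.0, 55.2, 39.8 and 51.3 CPM in myopia, against 229, 207, 180.0, 136 and 104.5 CPM in control. It fell by 1.85 ± 0.19 in log2 units (SE; adjusted p = 2.55e-06). CYBA also pairs with oxidases of other cells, so it is the least restricted to leukocytes of the 4. NCF4 averaged 13.7 ± 2.25 CPM in myopia and 42.8 ± 9.65 CPM in control (SD), and NCF1 averaged 4.28 ± 0.883 CPM in myopia and 10.7 ± 2.81 CPM in control. Both fell, with log2 changes of -1.64 ± 0.16 and -1.32 ± 0.20 (SE; adjusted p = 1.76e-06 and 6.11e-05). NCF1 has close copies in some genomes, and reads of such copies could not be told apart here.

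CYBB, by contrast, did not pass. It stood at 17.8, 18.1, 20.3, 15.3 and 11.0 CPM in myopia, against 16.01, 14.2, 13.5, 13.5 and 16.8 CPM in control, with overlapping groups and a log2 change of 0.16 ± 0.15 (SE; adjusted p = 0.364). With scaling by total count CYBB was 0.60 higher and passed (adjusted p = 0.00509). Ratios of counts within a library do not depend on the scaling. The ratio of CYBB reads to CYBA reads was 0.404, 0.378, 0.369, 0.385 and 0.215 in myopia libraries 1 to 5, against 0.0700, 0.0686, 0.0753, 0.0991 and 0.161 in control libraries 1 to 5, so that every myopia library lay above every control library.

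Of the 10 pan-leukocyte genes, all tested, 6 were lower (60%, beside 35.1% of all genes tested) and 1 was higher (10%, beside 36.9%). The other 3 did not pass, and the median log2 change of the 10 was -0.61. PTPRC (CD45), the receptor phosphatase on the surface of all nucleated blood cells, stood at 23.4, 18.8, 24.9, 19.2 and 16.3 CPM in myopia, against 7.57, 10.1, 6.45, 6.86 and 12.2 CPM in control. Every myopia library lay above every control library, and control 5 was the highest of its group. The log2 change of PTPRC was 1.25 ± 0.19 (SE; adjusted p = 4.75e-05), and it kept its direction and its call under every alternative run, between 1.17 and 1.68. LAPTM5, a lysosomal membrane protein of blood cells, moved the other way. It stood at 53.7, 43.8, 60.9, 51.2 and 44.8 CPM in myopia, against 169.0, 169.4, 129.9, 112.0 and 105.9 CPM in control, a log2 change of -1.43 ± 0.15 (SE; adjusted p = 2.30e-06). The ratio of PTPRC reads to LAPTM5 reads averaged 0.403 ± 0.0324 in myopia and 0.0662 ± 0.0284 in control (SD, n = 5 each), a ratio of means of 6.09.

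CD53, a tetraspanin of leukocytes, averaged 15.7 ± 4.07 CPM in myopia and 16.8 ± 4.599 CPM in control (SD), with a log2 change of -0.10 ± 0.21 (adjusted p = 0.692); scaling by total count gave 0.33 (adjusted p = 0.218).

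Among genes of the actin skeleton and its signalling, RAC2, the blood-cell form of the Rac switch, stood at 3.14, 4.23, 6.23, 4.82 and 4.21 CPM in myopia, against 15.1, 28.3, 17.7, 13.3 and 10.7 CPM in control. Its groups did not overlap, control 2 was the highest library, and the log2 change was -1.91 ± 0.25 (SE; adjusted p = 1.77e-05). CORO1A, an actin regulator of leukocytes, averaged 14.5 ± 2.37 CPM in myopia and 32.3 ± 7.76 CPM in control (SD). ARHGDIB, a signalling regulator that is abundant in blood cells, averaged 83.7 ± 10.2 CPM in myopia and 154.4 ± 25.8 CPM in control (SD). Both fell, with log2 changes of -1.15 ± 0.16 for CORO1A and -0.88 ± 0.12 for ARHGDIB (SE; adjusted p = 2.64e-05 and 2.57e-05).

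HCLS1, a cortactin relative that signals from antigen receptors, averaged 18.6 ± 3.01 CPM in myopia and 36.8 ± 8.97 CPM in control (SD), and fell by 0.98 ± 0.16 in log2 units (SE; adjusted p = 9.80e-05). The symbol stood on a second line of the table with 26.9 ± 3.31 CPM in myopia and 21.9 ± 2.66 CPM in control (SD). That line went the other way, with a log2 change of 0.30 ± 0.12 (adjusted p = 0.0333), and the files do not say what separates the lines. With the lines summed HCLS1 fell by 0.35 (adjusted p = 0.0112). LCP1 (L-plastin), which bundles actin, averaged 27.4 ± 4.11 CPM in myopia and 34.5 ± 3.90 CPM in control (SD), with overlapping groups. Its log2 change of -0.33 ± 0.12 (SE; adjusted p = 0.0196) was a weak call. It ended without myopia 5 (-0.27, adjusted p = 0.0545), without control 2 (-0.25, adjusted p = 0.0679) and with upper quartile factors (-0.26, adjusted p = 0.0564), and turned to 0.11 with scaling by total count (adjusted p = 0.402).

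LCP2 (SLP-76), an adaptor that links antigen receptors to calcium signalling, averaged 3.93 ± 1.43 CPM in myopia and 2.94 ± 1.09 CPM in control (SD), a log2 change of 0.42 ± 0.32 and missed the threshold (adjusted p = 0.252). With scaling by total count it was 0.84 and passed (adjusted p = 0.0395). IKZF1 (Ikaros), a transcription factor of lymphoid development, averaged 4.41 ± 0.922 CPM in myopia and 5.54 ± 1.33 CPM in control (SD). Its log2 change of -0.33 ± 0.21 did not pass (adjusted p = 0.178) and was 0.12 with scaling by total count.

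**Figure D2:**
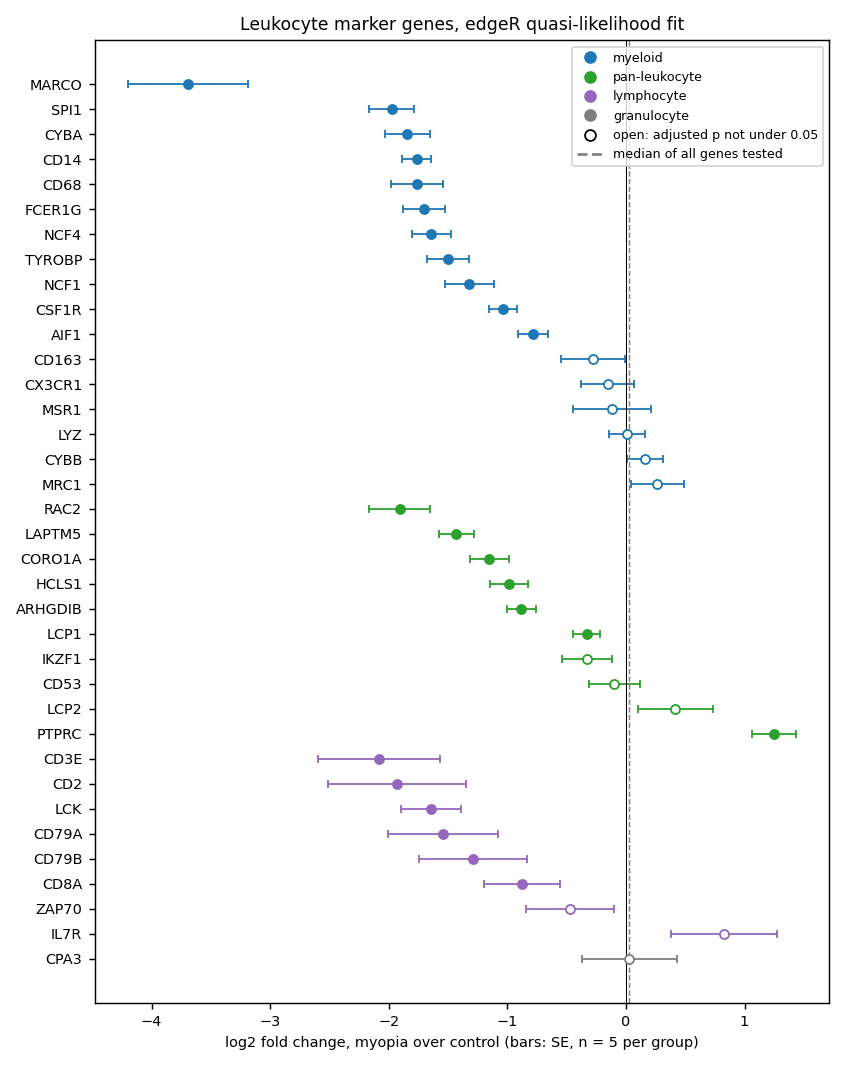
Log2 fold change of myopia over control for each tested member, with bars for the SE (n = 5 per group), ordered within class; filled points passed the adjusted threshold, open points did not, and the dashed line is the median of all genes tested at 0.03. Filled points lie left of 0 except for PTPRC at 1.25.

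**Figure D3:**
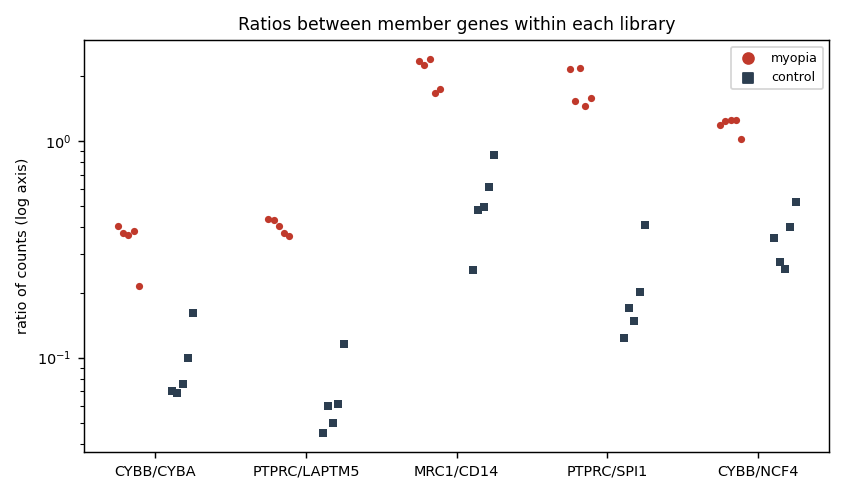
Ratio of the counts of a pair of members within each library, on a log axis, with myopia libraries as red circles and control libraries as dark squares. In all 5 pairs drawn, which were chosen after their values were seen, every myopia library lies above every control library, and control 5 is the highest control library in each pair.

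Within-library ratios of other pairs show how unequal the differences of single members were. The ratio of MRC1 reads to CD14 reads averaged 2.08 ± 0.350 in myopia and 0.542 ± 0.222 in control (SD, n = 5 each), and that of CYBB to NCF4 averaged 1.20 ± 0.0945 in myopia and 0.364 ± 0.108 in control. The ratio of PTPRC to SPI1 was 2.17, 1.54, 2.18, 1.46 and 1.58 in myopia libraries 1 to 5, against 0.123, 0.170, 0.148, 0.202 and 0.410 in control libraries 1 to 5. No test was made of these ratios, since the pairs were picked for their difference.

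Lymphocyte genes were near the lower limit of measurement. The 8 tested members summed to 6.91, 5.97, 9.03, 6.91 and 6.16 CPM in myopia libraries 1 to 5, against 19.3, 23.9, 12.3, 10.004 and 11.6 CPM in control libraries 1 to 5. In comparison, the 17 myeloid members tested summed to between 344 and 487 CPM in myopia, against 729.7 to 1024 CPM in control. Of the 8 lymphocyte genes 6 were lower (75%, beside 35.1% of all genes tested) and 0 higher (beside 36.9%). The other 2 did not pass, and the median log2 change of the 8 was -1.42. None was higher at an unadjusted p under 0.05 (0 in the edgeR test), and DESeq2 called 0, while IL7R passed as higher with scaling by total count and with limma-voom with sample quality weights. Scaled by total count, 3 were lower, where 18.7% of all genes tested were lower. The counts and median include CD3E, CD79B and CD2, which reached the filter's minimum level in more control than myopia libraries. For IL7R the reverse held. Such genes could enter the test more easily if they differed.

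LCK, the kinase that starts T cell receptor signalling, stood at 1.38, 1.01, 1.64, 1.03 and 1.18 CPM in myopia, against 4.97, 5.21, 2.80, 3.41 and 3.18 CPM in control. The groups did not overlap, and its log2 change of -1.64 ± 0.25 (SE; adjusted p = 6.11e-05) passed under every alternative run. CD3E, a chain of the T cell receptor complex, had 9, 10, 19, 13 and 14 reads in myopia, against 19, 107, 21, 24 and 38 reads in control. Its control mean rested largely on control 2, and the log2 change was -2.09 ± 0.51 (SE; adjusted p = 0.00244) with it and -1.34 (adjusted p = 0.00708) without it. CD2, an adhesion receptor of T cells, had 17, 5, 5, 3 and 5 reads in myopia, against 14, 40, 17, 6 and 25 reads in control, with overlap. It fell by 1.93 ± 0.59 in log2 units (adjusted p = 0.00912) and by 2.55 without myopia 1, and the call ended without control 2 and myopia 3 together (-1.42, adjusted p = 0.0696).

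CD8A, the co-receptor of cytotoxic T cells, averaged 1.11 ± 0.460 CPM in myopia and 2.05 ± 0.413 CPM in control (SD), with a log2 change of -0.88 ± 0.32 (SE; adjusted p = 0.0247). The call was lost without myopia 2 (-0.77, adjusted p = 0.0553), myopia 5 (-0.71, adjusted p = 0.0524), control 2 (-0.80, adjusted p = 0.0587) or control 3 (-0.79, adjusted p = 0.0598). It was also lost without control 4 and 5 together (-0.91, adjusted p = 0.0507), without control 2 and myopia 3 together (-0.85, adjusted p = 0.0737) and with scaling by total count (-0.43, adjusted p = 0.263). ZAP70, the kinase that acts after LCK, averaged 1.63 ± 0.444 CPM in myopia and 2.27 ± 1.399 CPM in control (SD) and did not pass (log2 change -0.47 ± 0.37, adjusted p = 0.265), with 0.01 under scaling by total count. IL7R, the interleukin-7 receptor of T cells, had 29, 38, 50, 21 and 30 reads in myopia, against 11, 18, 3, 22 and 18 reads in control, and a log2 change of 0.83 ± 0.45 (adjusted p = 0.110). Its lowest myopia library lay below its highest control library.

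For B cells, the receptor chain CD79A had 33, 28, 75, 38 and 66 reads in myopia, against 185, 138, 92, 34 and 59 reads in control. The control libraries differed widely among themselves, with control 4 and 5 within the range of the myopia libraries. CD79A fell by 1.54 ± 0.46 in log2 units (SE; adjusted p = 0.00860), and with scaling by total count the call was lost (-1.05, adjusted p = 0.0515). CD79B, its partner chain, had 15, 6, 18, 23 and 7 reads in myopia, against 35, 28, 30, 19 and 12 reads in control. It fell by 1.29 ± 0.45 (adjusted p = 0.0206), a call that was lost without myopia 5 (-1.13, adjusted p = 0.0501), without control 1 (-1.06, adjusted p = 0.0655) and with scaling by total count (-0.80, adjusted p = 0.123).

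CD3D, CD4 and MS4A1 were too low to test. CD3D, another chain of the T cell receptor complex, had 5, 1, 6, 5 and 2 reads in myopia, against 7, 50, 14, 3 and 23 reads in control. CD4, the co-receptor of helper T cells, had 3 to 13 reads per library in myopia and 2 to 42 in control, and MS4A1 (CD20), a B cell surface protein, had 0 to 17 in myopia and 0 to 10 in control. In a fit without the filter on low counts CD3D passed as lower (adjusted p = 0.00448), and CD4 and MS4A1 did not pass (adjusted p = 0.191 and 0.987).

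CPA3, a protease of mast cell granules, stood at 2.96, 4.65, 5.36, 3.38 and 3.03 CPM in myopia, against 0.670, 4.72, 5.90, 3.74 and 3.92 CPM in control. Control 1 lay far below the other libraries, and the log2 change was 0.03 ± 0.40 (adjusted p = 0.953). MPO, an enzyme of neutrophil granules, had 6, 3, 8, 1 and 0 reads in myopia libraries 1 to 5, against 0 in every control library, where a count of 0 allows up to 3 reads. It did not reach the filter, and without it MPO passed as higher (adjusted p = 0.0205), on at most 8 reads in a library.

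**Figure D4:**
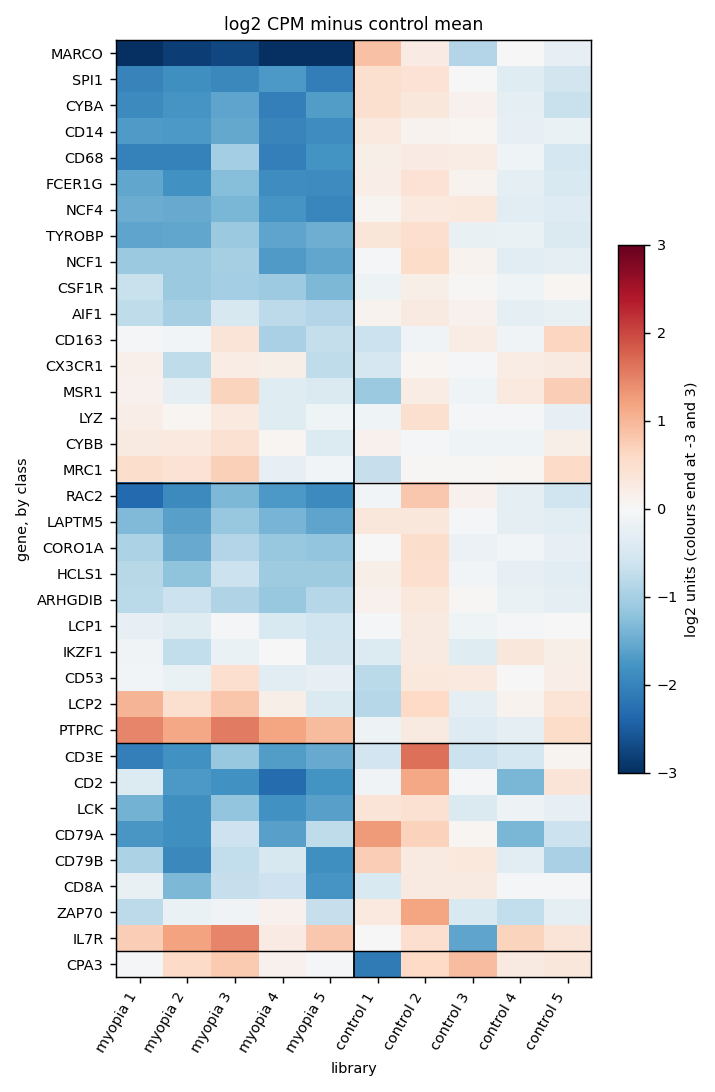
Log2 CPM of each tested member in each library minus its control mean, with genes in rows by class, the 5 myopia libraries in the left columns and the 5 control libraries in the right columns; blue is lower and red is higher. Most myeloid rows are blue in all myopia libraries, PTPRC is red in all of them, and the lymphocyte rows are uneven within both groups.

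The libraries of a group were not alike in their leukocyte genes. Control 2 was the highest control library for 19 of the 36 tested members, among them 8 of the 10 pan-leukocyte genes. Myopia 3 was the highest myopia library for 27 of the 36. For HBB, myopia 3 was also the highest myopia library, at 231 CPM, while control 2, at 2694 CPM, lay below control 3 and 4. Without control 2 and myopia 3 together, chosen after these values were seen, 21 members were lower and 1 higher. Of the 23 members called lower, 14 had control 4 and 5 both nearer to the myopia mean than control 1 to 3. These 2 libraries also lay nearest to the myopia libraries on the first principal component of all genes tested, with scores of -49.7 and -24.6, beside 61.5 to 72.5 in myopia and -94.6 to -81.5 in control 1 to 3. What the labels' numbers stand for is not given in the sources used here, and the part of this axis in the members' differences was not tested. How often the same library patterns occur over all genes tested was not counted. The counts above are therefore not shown to be particular to leukocyte genes.

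Other genes known from the same cells, not all of them confined to leukocytes, are given beside the members. Their lists hold none of the 41. Of 23 other myeloid genes tested 11 were lower (47.8%, beside 35.1% of all genes tested) and 3 higher (13%, beside 36.9%). Their median log2 change was -0.47. Under total-count scaling 4 were lower and 8 higher, with a median of -0.05, and 5 were higher both with sample quality weights and without control 4 and 5. Of all genes tested, 18.7% were lower and 52.0% higher under total-count scaling. TIMD4, a receptor for dying cells on resident macrophages, averaged 3.36 ± 1.43 CPM in myopia and 19.2 ± 3.14 CPM in control (SD), and TREM2, a lipid receptor that signals through TYROBP, averaged 4.99 ± 1.10 CPM in myopia and 26.5 ± 11.8 CPM in control. Both fell, with log2 changes of -2.51 ± 0.27 for TIMD4 and -2.40 ± 0.28 for TREM2 (SE; adjusted p = 2.97e-06 and 7.35e-06). ITGB2, the shared chain of the leukocyte integrins, fell by 0.96 ± 0.14 (adjusted p = 3.28e-05).

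On the TMM scale the 3 that rose were TLR4, CLEC7A and MERTK, of which CLEC7A and MERTK are named after their values were seen. TLR4, the receptor to which CD14 hands lipopolysaccharide, stood at 19.5, 19.7, 19.1, 14.6 and 14.4 CPM in myopia, against 3.39, 4.33, 4.30, 5.97 and 7.74 CPM in control, a log2 change of 1.76 ± 0.21 (adjusted p = 6.49e-06). TLR4 and CD14 thus moved in opposite directions, each without overlap between the groups. Which cells of the sclera carried either transcript was not tested. CLEC7A (Dectin-1), a receptor for fungal glucans, averaged 1.73 ± 0.335 CPM in myopia and 0.213 ± 0.164 CPM in control (SD). It had 67, 61, 88, 55 and 60 reads in myopia, against 2, 3, 3, 13 and 11 in control. Every myopia library but not every control library reached the filter's minimum level. CLEC7A could thus enter the test more easily if it differed. MERTK, a receptor for dying cells, averaged 8.67 ± 2.27 CPM in myopia and 5.33 ± 1.72 CPM in control (SD), with overlapping groups. Its log2 change was 0.70 ± 0.24 (SE, adjusted p = 0.018 in edgeR).

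Of 26 other pan-leukocyte genes tested 13 were lower (50%, beside 35.1% of all genes tested) and 4 higher (15.4%, beside 36.9%). Their median log2 change was -0.33. Scaled by total count, 4 were lower and 9 higher, with a median of 0.12, where 18.7% of all genes tested were lower and 52.0% higher. GMFG, an actin regulator of blood cells, PTPN6 (SHP-1), an inhibitory phosphatase, and SYK, a kinase that acts after FCER1G and TYROBP, were lower, by -1.14 ± 0.14 for GMFG, -1.09 ± 0.13 for PTPN6 and -0.86 ± 0.14 for SYK in log2 change (SE). CD44, a hyaluronan receptor also carried by fibroblasts, fell by 0.69 ± 0.11, a call that was lost with scaling by total count (adjusted p = 0.106). On the TMM scale the 4 that rose were PLCG2, DOCK8, TAGAP and ITGA4, named after their values were seen, with log2 changes of 0.34 ± 0.13 for PLCG2, 0.49 ± 0.14 for DOCK8 and 1.02 ± 0.22 for TAGAP. ITGA4, an integrin chain of leukocytes, averaged 0.744 CPM in myopia and 0.0546 CPM in control, too few reads in control for a firm fold. For ITGA4 every myopia library but no control library reached the filter's minimum level. Such a gene could enter the test more easily if it differed.

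Of 15 other lymphocyte genes tested 6 were lower (40%, near the 35.1% of all genes tested) and 0 higher (beside 36.9%). Their median log2 change was -0.67. Total-count scaling left 3 lower, where 18.7% of all genes tested were lower. NKG7, a granule protein of cytotoxic lymphocytes, averaged 0.396 ± 0.170 CPM in myopia and 3.06 ± 2.91 CPM in control (SD), where control 2 stood at 8.07 CPM. It fell by 2.94 ± 0.58 in log2 units (SE) and by 2.17 without control 2. The granule enzyme GZMB, the pore protein PRF1 and the T cell factor TCF7 also fell, with log2 changes of -2.03 ± 0.50, -1.85 ± 0.50 and -0.79 ± 0.20, and the call of TCF7 was lost with scaling by total count (adjusted p = 0.144). GZMB had 20, 13, 20, 3 and 5 reads in myopia, against 24, 66, 29, 36 and 35 in control. PRF1 had 12, 2, 23, 9 and 8 reads in myopia, against 31, 39, 33, 14 and 28 in control. For NKG7, GZMB and PRF1 every control library but not every myopia library reached the filter's minimum level. Such genes could enter the test more easily if they differed.

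**Figure D5:**
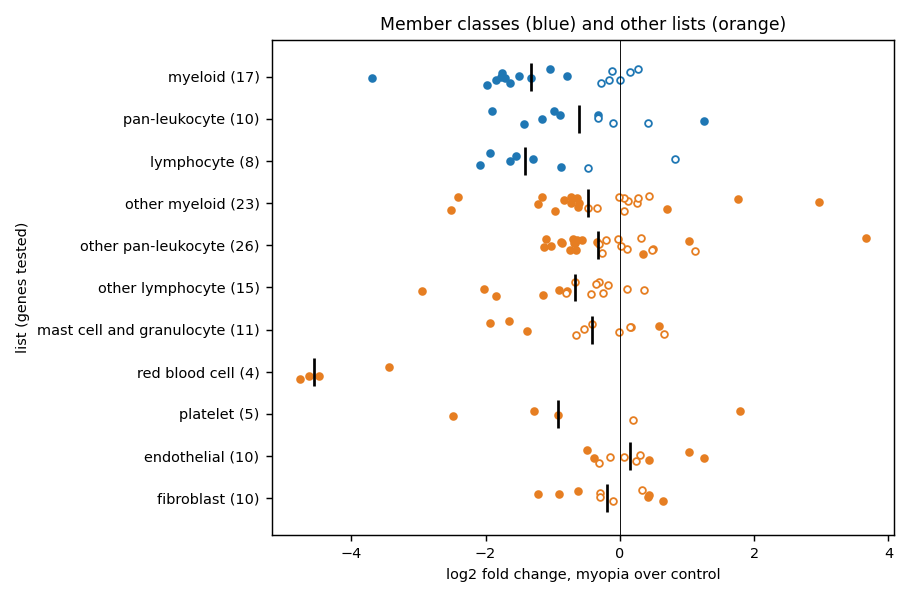
Log2 fold change of myopia over control for each tested gene of the 3 member classes (blue) and of 8 other lists (orange), with filled points past the adjusted threshold, open points not past it and black bars for medians; numbers in brackets are genes tested. The myeloid and lymphocyte medians lie at -1.32 and -1.42, the red blood cell median at -4.56 and the endothelial median at 0.16.

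Of 10 endothelial genes tested 3 were higher (30%, beside 36.9% of all genes tested), 2 lower (20%, beside 35.1%) and 5 did not pass. Their median log2 change was 0.16. KDR, the main receptor for VEGF, averaged 58.5 CPM in myopia and 28.8 CPM in control, and TEK, the angiopoietin receptor, averaged 64.3 CPM in myopia and 27.0 CPM in control. Both rose, with log2 changes of 1.02 ± 0.18 for KDR and 1.25 ± 0.22 for TEK (SE; adjusted p = 0.000157 and 0.000205), without overlap between the groups. EMCN, a surface mucin of vessels, also rose (0.43 ± 0.12), and VWF, von Willebrand factor, fell by 0.49 ± 0.16 in log2 units, a call that was lost with scaling by total count. That scaling gave 6 higher and 0 lower endothelial genes, with a median of 0.60. Of all genes tested it called 52.0% higher and 18.7% lower, with a median of 0.47. Without myopia 3, 5 endothelial genes were higher and 1 lower. The count of lower endothelial genes lay between 1 and 2 when single libraries were left out. Leaving out myopia 2, myopia 3, control 1, control 3 or control 5 lowered it, and it was also 1 with upper quartile factors. The summed level of the 10 was 994.3 to 1455 CPM in myopia, against 1225 to 1487 CPM in control. All 4 red blood cell genes tested were lower, with a median log2 change of -4.56 and a summed level of 100.1 to 456 CPM in myopia, against 2503 to 10558 CPM in control.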

How the data were processed

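The authors deposited raw counts of reads per gene symbol, as whole numbers in 1 table with a column per library. No source used here gives the aligner, counter, annotation or strand setting. The submitters' processing notes name mouse builds (GRCm38, mm10) with no role, so no coordinate, length or sequence is given, and reads of genes that overlap, antisense ones included, could not be separated. In a guinea pig gene table (RefSeq, mCavPor4.1), used for names only, 35 of the 41 symbols were found. Lines without a symbol (437 of 18079) held 0.751% to 0.824% of reads in myopia and 1.18% to 1.69% in control and were left out.

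The gene test was that of edgeR 4.0.16 (R 4.3.3): filterByExpr (minimum count 10, minimum total 15), TMM factors (1.11 to 1.25 in myopia, 0.778 to 0.968 in control), robust glmQLFit and glmQLFTest, 1 factor for group. An SE is the log2 fold change over the square root of F. No 2 libraries of a group agreed within counting noise (chi-square 18.7 to 122 for each degree of freedom). The test was first run on simulated data in which 200 genes were changed, as many up as down. It recovered 71% of 2-fold and 95% of 4-fold genes. In the real data 71.9% of the genes tested passed, so the simulation could not check the scaling. No set test was made. Alternatives were other scaling factors, filters, DESeq2 1.42.0, limma-voom (limma 3.58.1) plain or with sample quality weights, non-robust dispersion, the replicate number as a block, summed lines of a symbol, each library left out in turn, and control 4 and 5 left out together; control 2 and myopia 3 left out together was added after the data were seen.

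The members, their classes and the other lists were chosen with earlier results of these data known. Every member is named. From each other list at most 4 genes past the threshold, by smallest p, are named, and the exceptions are marked. For the fibroblast list all genes past the threshold are named. A planned description by protein length was not made, since no protein table was used here.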

Additional observations from a re-analysis of the deposited data

Results flagged for a closer look

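In 8 of 72 groups of 5 library values (36 tested members in 2 groups), the highest library stood apart from the other 4 by Dixon's test at the 95% level. Chance flags about 1 group in 20 where values are independent and normally distributed. The CPM were not on a log scale and the 72 groups share their libraries, so the 8 cannot be weighed against that rate. Among the myopia libraries, myopia 3 stood apart for TYROBP at 35 CPM, CD68 at 16.7 CPM and CD53 at 22.8 CPM, and myopia 1 for CD2 at 0.442 CPM. Among the control libraries, control 2 stood apart for LYZ at 64.9 CPM, LCP1 at 41.3 CPM, CORO1A at 45.8 CPM and CD3E at 3.77 CPM. No lowest library stood apart. Without control 2 and myopia 3 together, TYROBP, CD68, CORO1A, CD3E and LCP1 remained lower.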

How the results depend on the processing

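Wherever they were tested (MARCO, CD3E, CD2 and CD79B were not with a minimum count of 50), of the 24 members that passed 23 kept their direction under all 23 alternatives, LCP1 being the exception, and 19 also kept their call, the others being LCP1, CD8A, CD79A, CD79B and CD2. With scaling by total count 7631 genes were higher and 2752 lower, of 14683 tested, 6 members were higher (3 myeloid, 2 pan-leukocyte, 1 lymphocyte) and 3 lymphocyte genes were lower. The signs then turned for CD163 (0.13), CX3CR1 (0.29), MSR1 (0.29), CD53 (0.33), LCP1 (0.11), IKZF1 (0.12) and ZAP70 (0.0063). Without a filter 2 members were higher, and with a minimum count of 50 only 4 lymphocyte genes were tested and 3 were lower. With sample quality weights 2 members were higher, 1 of them a lymphocyte gene, and MSR1 was 0.10. LYZ, near 0, was -0.0171 with RLE factors, -0.0172 with DESeq2, -0.0333 with quality weights and -0.082 without control 4 and 5. Without control 4 and 5, CX3CR1 was 0.0214 and MSR1 0.26. Leaving out single libraries gave 20 to 23 members lower (11 myeloid in each case, 5 to 6 pan-leukocyte, 4 to 6 lymphocyte) and 1 higher, and turned the signs of LYZ (-0.0628 to 0.1619), MSR1 (-0.3511 to 0.10) and CPA3 (-0.2242 to 0.2531). CPA3 was -0.0272 without control 2 and myopia 3. For results without a stated cause, the cause was not tested. Same-numbered libraries did not vary together (r from -0.13 to 0.01), so no pairing was seen in the data, and the labels give none; the replicate block, with 5184 genes higher and 4919 lower, changed no member's call. The depth limits the lymphocyte genes, of which several had fewer than 20 reads in some libraries.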

Other observations

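Mast cell and granulocyte genes outside the members did not move together. Of 11 tested, 3 were lower (27.3%, beside 35.1% of all genes tested), 1 was higher (9.09%, beside 36.9%) and 7 did not pass. Under total-count scaling 3 were lower and 2 higher, where 18.7% of all genes tested were lower and 52.0% higher. CMA1 (chymase), a protease of mast cell granules, averaged 3.73 CPM in myopia and 14.2 CPM in control (log2 fold change -1.93 ± 0.35), and HDC, which makes histamine, fell by 1.38 ± 0.22 (edgeR adjusted p = 0.000265 and 7.69e-05). KIT, the growth factor receptor of mast cells, had a log2 fold change of 0.58 ± 0.24 (adjusted p = 0.0395), a call that was lost without control 2 and without any single myopia library. LTF (lactoferrin), of neutrophil granules and of gland secretions, fell by 1.66 ± 0.29 (adjusted p = 0.000153).

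Of 5 platelet genes tested 3 were lower (60%, beside 35.1% of all genes tested) and 1 higher (20%, beside 36.9%). GP1BA, a chain of the platelet receptor for von Willebrand factor, averaged 0.699 CPM in myopia and 3.95 CPM in control (log2 fold change -2.49 ± 0.29). GP1BB, its partner chain, fell by 0.93 ± 0.22 and TREML1, a receptor of platelet granules, by 1.27 ± 0.41 (edgeR adjusted p = 0.00177 and 0.0121). Both calls were lost with scaling by total count. That scaling gave 1 platelet gene lower and 2 higher, where 18.7% of all genes tested were lower and 52.0% higher. PPBP, a platelet chemokine, rose by 1.78 ± 0.57 (adjusted p = 0.0121) on few reads, with overlapping groups. It had 23, 22, 23, 61 and 78 reads in myopia, against 2, 19, 4, 13 and 7 in control. For PPBP every myopia library but not every control library reached the filter's minimum level, and for TREML1 the reverse held. Such genes could enter the test more easily if they differed. With a minimum count of 50, 3 platelet genes were tested and 0 were higher.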
